A study of Mus musculus with 3 samples.

Results

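TEC loci are stretches of the mouse genome that the GENCODE annotation lists as transcribed, usually from unspliced cDNA clusters with signs of a poly(A) tail, but for which experimental proof of a gene is awaited. The members described here are the genes whose transcripts all carry the type TEC in the deposited transcript tables, 3213 of 55536 genes. A further 45 genes hold a TEC transcript and one of another type and were not counted as members. Their levels were read from chromatin-bound RNA of bone marrow-derived macrophages, primary cells of C57BL/6J mice, sequenced as total RNA in 3 libraries after removal of ribosomal RNA. All 3 form 1 group. The cells were given 100 ng/ml of Lipid A, a bacterial ligand of TLR4, for 12 h. It was then washed out for 12 h and given once more at 100 ng/ml for 20 min. The labels call the libraries biological replicates 1, 2 and 3 but carry a single donor entry, so part of their spread may be technical. Age and sex were not collected. Starting RNA was 1 µg, 250 ng and 500 ng for replicates 1, 2 and 3, so amount and replicate cannot be told apart. Cells without either exposure were not analysed here, so no value below is an effect of Lipid A, and with 1 group no test between conditions was possible.

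Many TEC loci lie within the introns of longer genes. An intron is the part of a nascent transcript that splicing removes, and it is degraded soon after. RNA bound to chromatin holds transcripts that are still being made or spliced, so introns weigh more in it than in RNA of whole cells. Poly(A) tails also matter for this class, since many cDNA libraries were primed on runs of A. A run inside an intron can serve as a primer site as well as a true tail does. A true 3′ end usually carries the hexamer AATAAA, or its variant ATTAAA, shortly before the site of cleavage.

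The libraries held 13610746, 24105317 and 16517065 expected counts on genes for replicates 1, 2 and 3. All 7 macrophage markers, such as Adgre1 and Csf1r, reached 1 TPM in every library, and their summed level ranged from 746 to 939 TPM (a level scaled for transcript length, with the same total in every library). No marker of T cells, B cells, neutrophils, erythroid cells, mast cells, stroma or endothelium reached 1 TPM in all libraries, and no such list summed to more than 2.44 TPM.

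Of the 3213 loci, 3120 have a single exon and the median length is 1949 bases, with quartiles of 1094 and 2802 bases. Names of the Gm form belong to 2756 loci, Rik names from the RIKEN cDNA collection to 367, and clone names to 74. Their places in the genome are uneven. Chromosome 5 holds 498 loci and chromosome 1 holds 475, against 15 on chromosome 11 and 6 on the X chromosome.

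The last 100 bases of 7 loci are printed here because the letters at the 3′ end differ among loci of like level and because 1 of them is largely a repeat of other genes. They come from the GENCODE M21 transcript sequences, run 5′ to 3′ on the strand of the locus, and have mm10 coordinates. Capitals mark AATAAA or ATTAAA within the last 50 bases, and a line with no capitals has neither there. Gm43197, Gm37084, Gm37589, 5330406M23Rik and Gm44291 lie in introns on the strand of the host gene, Gm44207 lies in introns of a gene on the other strand, and Gm45553 lies outside genes.
Gm43197, chr6:3336772-3336871, minus strand: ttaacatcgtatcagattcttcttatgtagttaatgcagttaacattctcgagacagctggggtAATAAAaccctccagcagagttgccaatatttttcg
Gm37084, chr1:131086252-131086351, minus strand: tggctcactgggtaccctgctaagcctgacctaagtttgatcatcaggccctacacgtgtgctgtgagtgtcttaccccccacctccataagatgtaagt
Gm37589, chr3:60539645-60539744, plus strand: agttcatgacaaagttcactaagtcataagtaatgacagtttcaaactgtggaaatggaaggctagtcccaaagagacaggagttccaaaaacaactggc
5330406M23Rik, chr6:31108827-31108926, minus strand: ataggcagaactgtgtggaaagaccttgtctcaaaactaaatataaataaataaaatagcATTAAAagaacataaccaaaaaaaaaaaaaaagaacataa
Gm44291, chr2:38104432-38104531, minus strand: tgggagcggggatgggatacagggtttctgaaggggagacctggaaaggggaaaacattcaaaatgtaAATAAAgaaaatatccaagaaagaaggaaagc
Gm44207, chr6:89346464-89346563, plus strand: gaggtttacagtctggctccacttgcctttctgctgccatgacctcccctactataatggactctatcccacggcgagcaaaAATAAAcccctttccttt
Gm45553, chr8:54513644-54513743, minus strand: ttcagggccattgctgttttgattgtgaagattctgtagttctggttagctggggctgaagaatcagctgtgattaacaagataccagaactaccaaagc

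AATAAA, searched on the transcript strand only, stood in the last 50 bases of 699 loci (21.8%), and AATAAA or ATTAAA in 929 (28.9%). The same search in the middle 50 bases of each locus found either hexamer in 6.01%. Of all 141767 annotated transcripts 26.6% had AATAAA in the last 50 bases, of protein-coding transcripts 40.6% and of antisense transcripts 31.4%. Other long noncoding transcripts had it in 22.2%, close to the TEC loci, and pseudogene transcripts in 2.09%. Loci in introns on the host's strand had AATAAA least often of the position groups below, in 239 of 1566 (15.3%), against 27.3% of loci in introns of a gene on the other strand and 27.8% of loci outside genes. The share hardly differed with level: it was 21.7% of loci at 1 TPM or more in all libraries and 20.7% of those at 0 counts. A run of 6 A stood in the last 20 bases of 158 loci (4.92%), as in the end of 5330406M23Rik, where 85% of the last 20 bases are A. Such a run ended 3.55% of all annotated transcripts, 3.86% of protein-coding and 5.05% of antisense transcripts, so it is not particular to TEC loci. A hexamer match is a description of letters, and its absence says only that these letters are not in this window.

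TEC loci took a small part of the reads. They held 2.24, 1.75 and 1.81% of expected counts on genes in replicates 1, 2 and 3, a mean of 1.93% ± 0.267 (SD, n = 3). Antisense genes, a class of 2959 genes, held 0.762% ± 0.0897, and protein-coding genes 65.2% ± 3.69. In bulk RNA, more cells that make an RNA and more RNA per cell cannot be told apart. The share was highest in replicate 1, and those of replicates 2 and 3 lay close together.

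At 1 TPM or more, 1087, 1021 and 1092 TEC loci were found in replicates 1, 2 and 3, and 983 (30.6%) reached this level in all of them. That percentage was 45.2% for protein-coding genes, 21.6% for antisense genes, 9.92% for other long noncoding genes and 7.05% for pseudogenes. Few loci were abundant: 211 (6.57%) reached 10 TPM in all libraries, the 90th percentile of mean TPM was 9.51, and the median over all members was 0.05 TPM. At 10 TPM the percentage was 21.8% for protein-coding genes, 2.37% for antisense genes, 2.00% for other long noncoding genes and 1.06% for pseudogenes. No count was found in any library for 1328 loci (41.3%). The same held for 30.3% of protein-coding, 43.1% of antisense and 66.1% of other long noncoding genes, and for 76.8% of pseudogenes. At this depth a count of 0 allows up to 3 counts, or 0.220, 0.124 and 0.182 CPM (counts scaled to library size) in replicates 1, 2 and 3, counting error only. The order of the loci by TPM was alike between libraries, with Spearman's rho from 0.945 to 0.951 over the 3213 loci, which share annotation and length. The 1328 loci without counts are tied at 0 in every library and enter this rho, which was not computed without them.

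The reads were concentrated. The 10 loci with the most counts held 14.1, 12.6 and 13.9% of all TEC counts in replicates 1, 2 and 3, the top 100 held 46.5, 45.5 and 45.0%, and the top 500 held 87.5, 86.3 and 86.2%. By counts the first was 9330162G02Rik, a single-exon locus of 30942 bases on chromosome 7 (59223847 to 59254788), with 5965, 8879 and 6223 counts. Its level per length was modest, at 16.5, 11.1 and 14.2 TPM. It overlaps exons of Ube3a, which encodes a ubiquitin ligase, on the other strand. Whether reads were counted by strand is not given in the sources used here, so the reads of a locus and of a gene that overlaps it cannot be told apart by strand, and on the same strand unspliced host RNA and RNA of the locus cannot be told apart.

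The 15 highest loci by mean TPM, among those with a mean count of 50 or more, lay inside genes: 12 in introns on the host's strand, 1 over exons on that strand and 2 over exons on the other strand. Replicate 1 gave the highest TPM for 13 of the 15 and replicate 2 the lowest for 13. On log2(TPM + 1), replicate 1 was highest for 70.9% of TEC loci with a mean count of 50 or more and for 52.6% of other genes. TPM is a share of a library, and genes outside the protein-coding, long noncoding, antisense, pseudogene and TEC classes held 63.5% of TPM in replicate 2 against 53.7 and 54.6% in replicates 1 and 3, and protein-coding genes held 24.5% there against 34.0% in replicate 1.

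**Figure D1:**
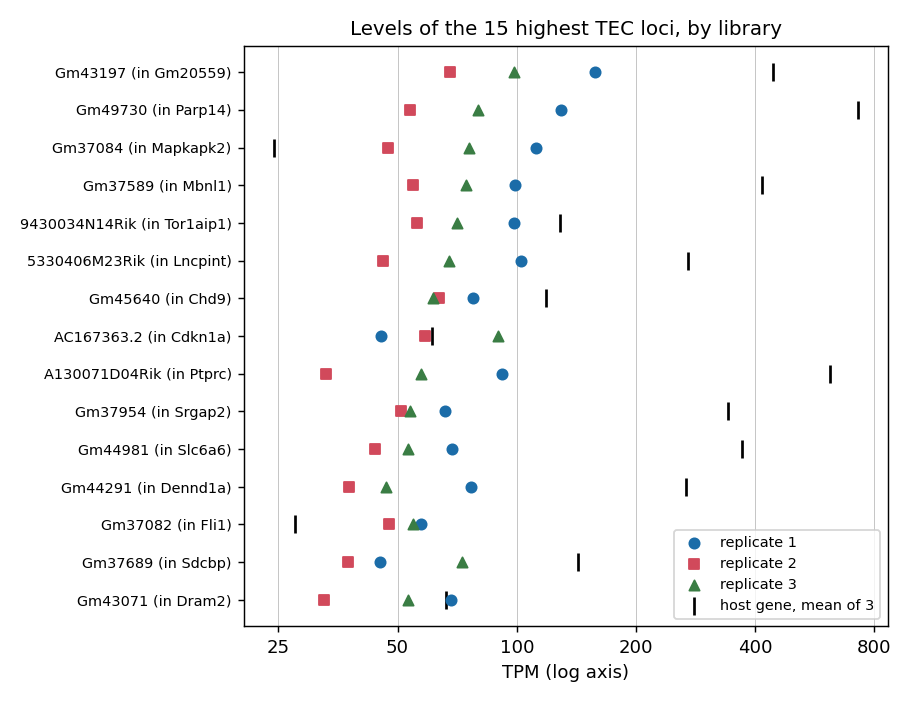
TPM on a log axis of the 15 highest TEC loci in replicates 1 (circles), 2 (squares) and 3 (triangles), with the mean of the gene that each overlaps as a black tick. Cdkn1a and Slc6a6 are on the other strand. The locus exceeded the gene around it in 3 of 15, Gm37084, Gm37082 and AC167363.2.

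Gm43197 (ENSMUSG00000107215.1), 2583 bases at chr6:3336772-3339354 on the minus strand, stood first. It had 157, 68.0 and 98.3 TPM in replicates 1, 2 and 3, from 4378, 4149 and 3273 counts. It lies in an intron of the noncoding gene Gm20559, which had 618, 291 and 417 TPM, and locus and host share the same order of libraries, replicate 1 high and replicate 2 low.

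Gm49730, at chr16:35866179-35867951, overlaps an exon of Parp14 on the same strand. Parp14 encodes an ADP-ribosyltransferase induced by interferon. The locus had 130, 53.6 and 79.7 TPM and Parp14 had 957, 610 and 618 TPM. Replicate 1 was highest for both.

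Gm37084 differed from most in its ratio to the host. It lies at chr1:131086252-131092149 in an intron of Mapkapk2, which encodes the kinase MK2 downstream of p38, on the same strand. It had 112, 47.3 and 76.0 TPM where Mapkapk2 had 33.3, 14.97 and 24.7 TPM, so the locus stood at 322% of its host. Gm37082, in an intron of Fli1, an ETS transcription factor gene, had 57.5, 47.5 and 54.7 TPM against 30.9, 22.5 and 29.3 TPM for Fli1, or 193% of the host. Over the 15 loci the median was 26.6% of the gene around them, and the lowest was 9.83%, for A130071D04Rik in Ptprc. Ptprc encodes the leukocyte phosphatase CD45.

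Other high loci lay in genes of several kinds. Gm37589 in Mbnl1, a splicing regulator gene, had 98.9, 54.9 and 74.4 TPM. 9430034N14Rik in Tor1aip1, which encodes a protein of the inner nuclear membrane, had 98.5, 55.9 and 70.7 TPM. 5330406M23Rik, in the long noncoding gene Lncpint, had 102, 46.1 and 67.6 TPM. All of these had the same order, replicate 1 first and replicate 2 last.

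Gm45640, in an intron of the chromatin remodeller gene Chd9, varied less, with 77.5, 63.6 and 61.6 TPM. Gm37689, in Sdcbp, is only 275 bases long and rests on 40, 59 and 63 counts, for 45.1, 37.4 and 72.9 TPM. The deposited second quantification gave it 181 TPM on average, against 51.8 ± 18.7 TPM (SD, n = 3) in the gene tables, so the level of this short locus is uncertain.

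The position of each locus was taken from the annotation, against genes of all other types. Introns on the host's strand held 1566 loci (48.7%) and 71.2% ± 0.395 (SD, n = 3) of TEC counts. Loci outside genes numbered 959 and held 5.18% ± 0.159 of TEC counts. Exons on the same strand were overlapped by 90 loci (5.56% of counts), exons on the other strand only by 323 (11.0%), of which 57 also lie inside a gene on their own strand. A further 275 loci (7.11%) lie in introns of a gene on the other strand only.

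Loci over exons on the same strand were detected most often, 52.2% of them at 1 TPM or more in all libraries. The share was 41.2% in introns on the same strand, 34.7% over exons of the other strand, 33.5% in introns of the other strand and 9.07% outside genes. Of the 983 loci at this level, 645 were in introns of the same strand and 87 were outside genes. Mean log2(TPM + 1) was 0.31 ± 0.03 (SD over 3 libraries) higher in introns of the same strand than in introns of the other strand only. This SD covers 3 libraries over the same loci and not the spread among loci. The difference was small against the range among loci within either group. The groups differed in other ways too. Median host level was 1.60 TPM on the same strand and 0.68 TPM on the other, and median locus length 2117.5 and 1375 bases. The part of host level or length in the difference was not tested.

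The level of the host separated the loci more than the strand did. Where the host on the same strand had under 1 TPM, 9 of 738 intronic loci (1.22%) reached 1 TPM in all libraries. With a host of 1 to 10 TPM the share was 46.3% of 296 loci, with 10 to 100 TPM 93.5% of 459, and with 100 TPM or more 95.9% of 73. Loci whose host was on the other strand only followed the same order, with 2.05% of 146, 43.1% of 51, 83.6% of 67 and 100% of 11. Median levels in these 4 classes of host were 0, 1.26, 7.51 and 20.2 TPM on the same strand and 0, 1.14, 5.63 and 19.0 TPM on the other strand. The loci share libraries and hosts, and these shares are a description with no test.

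**Figure D2:**
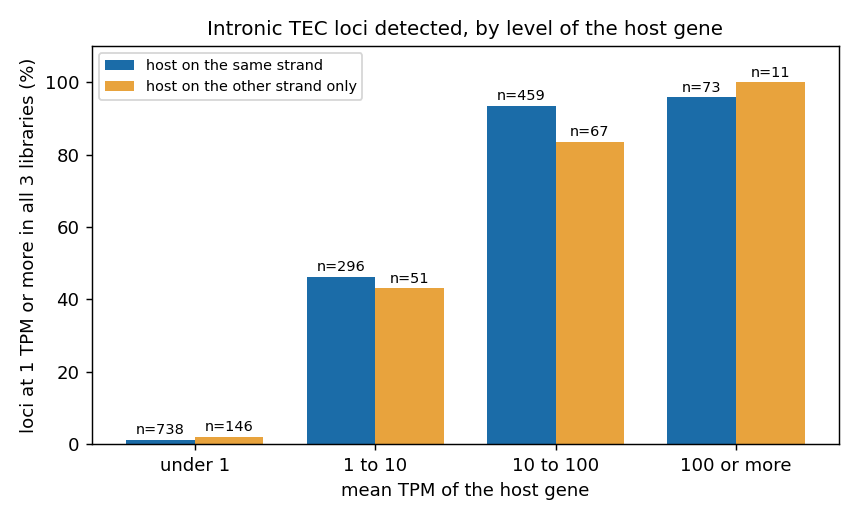
Percentage of intronic TEC loci at 1 TPM or more in all 3 libraries, by mean TPM of the host gene, for hosts on the same strand and on the other strand only, with the number of loci above each bar. The percentage is 1.22 and 2.05 with a host under 1 TPM and 95.9 and 100 with a host of 100 TPM or more.

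Across loci, Spearman's rho of mean TPM between locus and host was 0.880 on the same strand (1566 loci in 953 hosts) and 0.854 on the other strand (275 loci in 249 hosts). Within single libraries it ranged from 0.866 to 0.883 and from 0.841 to 0.852. Many points are at 0 in both. Over loci with a mean of at least 10 counts rho was 0.678 and 0.632. A locus was usually below its host. With hosts of 10 to 100 TPM the median level was 21.6% of the host on the same strand and 16.7% on the other strand, and with hosts of 100 TPM or more it was 12.4 and 7.67%.

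**Figure D3:**
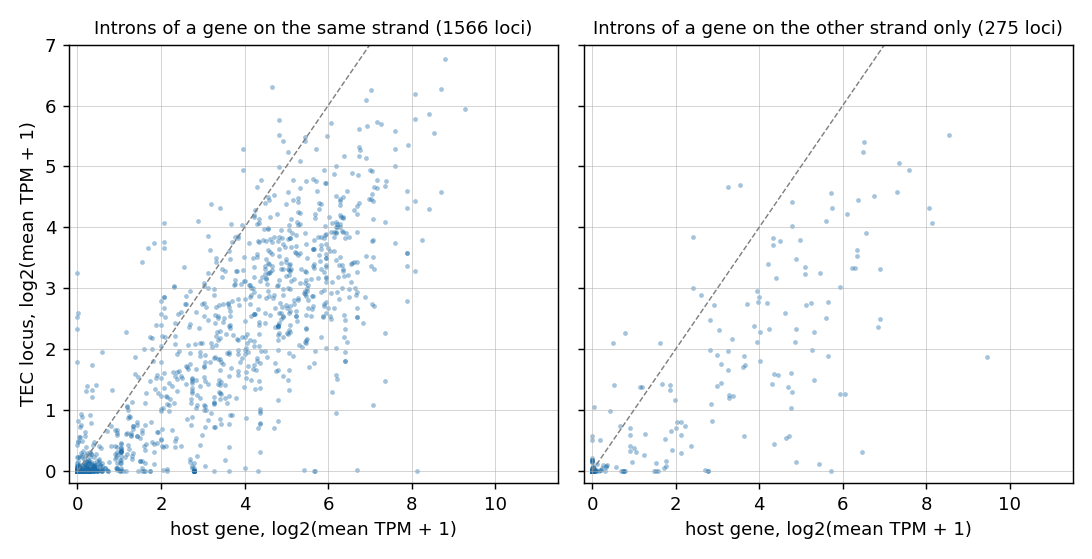
Mean level of each intronic TEC locus against that of its host gene, both as log2(mean TPM + 1), for hosts on the same strand (1566 loci, left) and on the other strand only (275 loci, right). The dashed line marks equal levels, and most loci with a measurable level lie below it in both panels.

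Among loci with a host on the other strand only, AC167363.2 stood highest. It lies at chr17:29093416-29094461 on the minus strand and overlaps exons of Cdkn1a, which encodes the cell cycle inhibitor p21. It had 45.5, 58.7 and 89.5 TPM, and Cdkn1a had 61.9, 39.4 and 82.2 TPM. Replicate 3 was highest for both and the order of replicates 1 and 2 was opposite. Of the 31-base words of this locus, 22.8% also occur in the Cdkn1a transcripts, which read the same bases on the other strand.

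Slc6a6, the taurine transporter gene, has a pair of such loci. Gm44981 overlaps its exons and had 68.7, 43.9 and 53.1 TPM. 4930517G19Rik lies in its introns (chr6:91689933-91691608, minus strand) and had 65.1, 29.1 and 39.6 TPM. Slc6a6 itself had 431, 318 and 359 TPM, so in TPM all 3 were high in replicate 1 and low in replicate 2. On log2 CPM, Gm44981 was lowest in replicate 3 (6.64, 6.36 and 6.30).

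Gm43980, on the strand opposite to the splicing regulator gene Tra2a, had 51.0, 28.4 and 44.2 TPM. Gm44207, opposite to the semaphorin receptor gene Plxna1, had 44, 24.5 and 42.1 TPM, and the AATAAA printed above begins at its base 18 from the 3′ end. Both were lowest in replicate 2.

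For loci outside genes, the nearest gene upstream on the same strand made a similar difference. Within 10000 bases after the end of such a gene lay 225 loci, of which 25.3% reached 1 TPM in all libraries. The share was 5.26% of 133 loci where that gene had under 1 TPM, 34.1% of 44 at 1 to 10 TPM, 70.5% of 44 at 10 to 100 TPM, and 100% of the 4 at 100 TPM or more. Within 10000 bases upstream of the start of a gene on the other strand lay 160 loci, and 6.88% of them reached 1 TPM. Of the other 574 loci outside genes 3.31% did.

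The 5 highest loci outside genes include 3 whose sequence is largely shared. Gm45553, 507 bases long and 6283 bases after the end of Spcs3, had 48.5, 30.3 and 43.1 TPM. Of its 31-base words, 80.7% also occur in transcripts of other genes: 61.4% occur in the TEC locus Gm43694 and 41.7% in the long noncoding gene Gm38025, which had 81.1, 57.2 and 65.1 TPM. The gene tables gave Gm45553 whole counts, 164, 208 and 161, and the deposited posterior SD of its count was 0. The second quantification gave it 62.2 TPM on average, against 40.6 TPM in the gene tables, so its level is uncertain. The part of the shared words in this was not tested.

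Gm37226 had 41.7, 15.9 and 30.2 TPM, and 74.0% of its 31-base words occur in the TEC locus Gm37833 on the same chromosome, which had 2.88, 1.09 and 1.37 TPM. Gm38214 had 31.9, 14.8 and 23.9 TPM and shared 70.4% with Gm37993. Both lie after the end of Mthfsl, at 2416 and 6676 bases. Their posterior SDs were 0.441 and 0.381% of the count. The second quantification averaged 28.3 and 31.5 TPM, against 29.2 and 23.55 TPM in the gene tables. The part of the shared words in these levels was not tested, so they too are uncertain. Without these, E330034L11Rik, 7202 bases after Ensa, led the group at 34.9, 21.4 and 31.9 TPM with 7.20% of its words shared. Gm37352, 3202 bases from the noncoding gene Gm26887, had 19.7, 18.1 and 27.9 TPM and shared none.

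Level relative to the host was lower farther from the host's start. Among 510 loci in introns of protein-coding hosts of at least 10 TPM, the median was 28.3% of the host's TPM for 80 loci under 10000 bases from the start and 13.5% for 120 loci at 100000 bases or more. All 3 libraries had this order, from 28.8, 27.5 and 29.1% to 15.1, 12.5 and 12.5%. Spearman's rho of distance and percent of host was -0.31 over the 510 loci. The hosts differ too: their median length was 46330 bases in the nearest group and 306698 bases in the farthest. From the nearest to the farthest group, median host level was 30.1, 31.6, 39.2 and 43.3 TPM. That of the loci themselves was 8.99, 9.31, 8.90 and 4.985 TPM. The part of host length or host level in the order was not tested. Relative place along the host showed little, with a rho of -0.07.

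**Figure D4:**
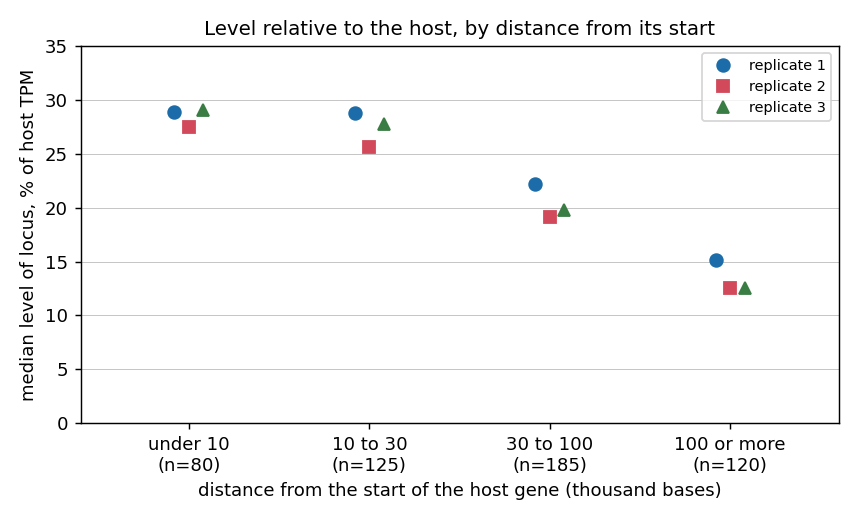
Median level of intronic TEC loci as a percentage of the TPM of their protein-coding host (at least 10 TPM, 510 loci), by distance from the host's start and by library. The percentage is near 28 close to the start and between 12.5 and 15.1 at 100000 bases or more.

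Within the same host, 91 genes held at least 2 such loci. The locus nearest the start was higher than the farthest in all 3 libraries in 46 hosts, lower in all 3 in 32, and mixed in 13. In Med13l, which encodes a Mediator subunit, the first locus, Gm43788, had 45.4, 21.6 and 32.4 TPM and the last, Gm43051, had 12.9, 8.76 and 11.4 TPM. In Picalm, a clathrin assembly gene, Gm45223 had 37.3, 39.6 and 63.6 TPM and Gm45220, the last, had 13.7, 10.1 and 13.2 TPM. The values of first and last locus did not overlap in either gene.

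Other hosts differed from this. In Mef2a the first locus, Gm44668, had 11.25, 7.56 and 8.21 TPM and the last, Gm44667, had 28.8, 15.1 and 21.25 TPM. In 2010111I01Rik the first, Gm47584, averaged 1.78 TPM and the last, Gm47585, 16.1 TPM. Dis3l2, which encodes an RNA exonuclease, held the most loci, 8, with mean levels from 0.763 to 4.26 TPM. Its first locus, Gm37485, had 4.10, 3.64 and 3.40 TPM and its last, Gm37447, 4.32, 3.66 and 4.81 TPM, a difference near 0 in replicates 1 and 2. Camk2d, a calmodulin-dependent kinase gene, went the way of Med13l instead. It held 7 loci between 5.37 and 19.5 TPM, with the highest level at the first, Gm43011.

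The spread between libraries was described as the SD of log2 CPM, from counts normalised by TMM (trimmed mean of M values, a scaling of libraries), for the 859 TEC loci with a mean count of 50 or more. Its median was 0.221, against 0.198 for the 10771 other genes at that depth. The comparison changed with depth. Between 50 and 100 counts TEC loci had a median SD of 0.264 and other genes 0.279, and between 100 and 200 counts 0.20 and 0.23. At 500 to 1000 counts TEC loci had 0.235 and other genes 0.169, and at 1000 or more 0.235 and 0.169. Most of these other genes are protein-coding. Medians of 2 noncoding classes lay closer to that of TEC loci in these last 2 depth groups: other long noncoding genes had 0.25 and 0.244, and antisense genes 0.231 and 0.249. Over all genes with a mean count of 50 or more, the medians of antisense genes (0.262), other long noncoding genes (0.245) and pseudogenes (0.285) lay above that of TEC loci. An SD above 0.5 was found in 69 TEC loci (8.03%) and in 8.45% of other genes.

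The libraries differed in 1 direction. Replicate 1 gave the highest log2 CPM for 485 of the 859 loci (56.5%), against 32.1% of protein-coding genes and 34.1% of all other genes. Replicate 2 was lowest for 414 (48.2%). The median difference between replicates 1 and 2 was 0.20 on the log2 scale over TEC loci (quartiles -0.06 and 0.47) and -0.04 over 9540 protein-coding genes. It was 0.11 over antisense genes, 0.16 over other long noncoding genes and 0.22 over pseudogenes, so the TEC loci are not alone in it. Replicate 1 also had the fewest counts and the most starting RNA, and the part of either was not tested.

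Loci and hosts shared only part of their differences between libraries. For 569 intronic loci and their hosts on the same strand, both with at least 50 counts, the median difference between replicates 1 and 2 was 0.21 for the loci and 0.03 for the 402 hosts. The locus less its own host gave a median of 0.17, and it was above 0 in 388 of 569 pairs (68.2%). Spearman's rho of the difference between replicates 1 and 2 in locus and host was 0.477 over these pairs and 0.613 over 67 pairs with the host on the other strand.

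Of the 5 loci with the largest spread, 4 overlap another gene and 1, Gm42547, lies outside genes. Gm42793, over an exon of Spp1 on the same strand, had the largest SD, 1.29, with 44.4, 6.67 and 35.3 TPM. Spp1 encodes the secreted protein osteopontin and had 40.2, 8.59 and 44.8 TPM, low in replicate 2 like the locus. Of the words of Gm42793, 12.4% occur in Spp1 transcripts.

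Gm45244, over exons of Acsl1 on the other strand, had an SD of 1.21, with 36.5, 5.89 and 9.45 TPM. Acsl1 encodes a long-chain acyl-CoA synthetase and had 51.9, 18.8 and 21.7 TPM, high in replicate 1 alone, and 46.5% of the words of the locus occur in it. Gm37842 in Peak1os had an SD of 1.13, with 19.4, 3.74 and 4.88 TPM, and its host had 46.2, 7.38 and 10.6 TPM.

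Gm44292 had 35.6, 8.14 and 26.0 TPM in an intron of Mxd1, a gene for a MAX dimerization partner, which had 74.2, 21.8 and 60.4 TPM. Gm42547, outside genes and 750 bases from 6530409C15Rik, had 11.7, 2.60 and 5.31 TPM. In the first 2 of these 5 loci the exon overlap means that host reads may enter the count.

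The steadiest loci were at moderate level. Gm43421 in Zfp644 had a log2 CPM of 4.84 in all 3 libraries (12.6, 9.78 and 12.2 TPM). Gm37677, in the myosin phosphatase gene Ppp1r12b, had 5.45, 5.46 and 5.44, and Gm49783, over an exon of Nedd1, 3.498, 3.49 and 3.51. They are the smallest SDs among 859 loci with 3 values each.

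A list of 76 response genes of the TLR4, NF-kB and interferon pathways, such as Tnf, Il6 and Mx1, had 75 members in the annotation. A TEC locus lay on or within 10000 bases of 3 of the 75 (4%) and of none of 12 macrophage identity genes. The share was 8.55% of all 22028 protein-coding genes and 5.64% of all 52323 genes of other types than TEC, so nothing is read from the count. Genes of these pathways outside the list were not counted. Gm49730 in Parp14 is given above. Gm43430 lies in an intron of Nfkb1, which encodes the p105 precursor of the NF-kB subunit p50, on the same strand at chr3:135650670-135654566. It had 20.1, 8.28 and 14.9 TPM and Nfkb1 had 93.6, 64.0 and 81.2 TPM, with replicate 1 high and replicate 2 low for both. 2210009P08Rik, 3577 bases from Mx1, an interferon-induced GTPase gene, had 0.35 TPM in replicate 1 and was listed at 0 in the others, with a mean of 0.333 counts, while Mx1 averaged 1961 TPM.

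The second deposited quantification detected far more of these loci. It put 1716 at 1 TPM or more in all libraries, of which 966 were among the 983 of the gene tables (98.3% of 983 and 56.3% of 1716). Its share of estimated counts on TEC loci was 3.90, 3.17 and 3.25%, above the gene tables in every library. Spearman's rho of mean TPM between the tables was 0.692 over all loci and 0.810 over those with a mean count of 50 or more.

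The loci on which the tables differed most shared some sequence with other genes more often than the members as a whole. The gene tables gave no count in any library to 353 loci that had at least 1 TPM throughout in the second table. Of these, 337 (95.5%) share at least 1 of their 31-base words with a transcript of another gene, on either strand, although the median shared was only 2.77% of words. Among 975 loci with no count in the gene tables and under 1 TPM in the second in at least 1 library, 41.5% share any word, and the median was 0%. These 975 loci were also shorter, with a median length of 1544 bases against 2130 bases for the 353. Of the 966 loci at 1 TPM or more in both tables, 71.5% share any word. Of the 353, 172 lie in introns on the host's strand and 142 outside genes. The part of shared words or of length in the difference between the tables was not tested.

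Over all members 64.9% share at least 1 such word with another gene and 190 share over 50% of theirs. Loci detected in both tables had a median of 1.41% shared. Base composition differed little with detection: the median GC content was 42.3% over all loci, 42.1% at 1 TPM or more in all libraries and 41.3% at 0 counts. Loci with 2 or more exons were detected less often than the rest, 9.68% of 93 against 31.2% of 3120 single-exon loci at 1 TPM or more in all libraries, a description with no test.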

How the data were processed

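The members and gene lists were chosen with earlier results of these data known. The authors' gene tables, per the file headers, give expected counts, TPM and FPKM per gene, and a posterior SD of the count, treated as a score. The authors' second transcript tables give estimated counts and TPM, summed here per gene. Per the labels and the notes deposited with the files, the build is mm10 with annotation M21. The programs, versions and strand setting of the counting were not given in the sources used here. TPM was used as deposited, and FPKM only as an alternative for the number of loci detected. Entries without a gene identifier, 2.46, 0.484 and 0.327% of counts, were left out of shares and CPM.

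Expected counts were rounded and scaled with edgeR 4.0.16 (TMM, prior count 2 for log2 CPM); DESeq2 1.42.0 size factors were an alternative. The SD was taken over 3 libraries at a mean of at least 50 counts. Positions came from GENCODE M21, all members matched by identifier, and the host is the gene with the largest overlap. Ties went to the gene with the higher mean TPM, so level had a part in the choice of those hosts. Spread and position steps were tested on simulated data. Named loci are the 15 highest by TPM, 5 highest by count, 5 with the largest and 3 with the smallest SD, 5 highest outside genes, 5 highest with a host on the other strand only, and those within 10000 bases of the listed genes. Loci compared within a host (first and last) and Gm43694, Gm37833 and Gm37993, which share sequence with them, fall outside this rule and were chosen after their values were seen. Words of 31 bases were compared on both strands with all M21 transcripts. R 4.3.3 and Python 3.11.15 were used.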

Additional observations from a re-analysis of the deposited data

How the results depend on the processing

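The difference by strand of the host and the correlations between locus and host kept their sign under every alternative. The other results have no sign. Of the values recomputed, 28 stayed within the bound set for them and 21 moved further. The bound was the spread between libraries or under leave-one-out, and 1.5 times for the number of loci detected. For the percentage it was a counting interval over loci, which share libraries and are not replicates. With 3 libraries, leaving 1 out cannot move a mean past its SD, so such values had to stay within it. The bound of the median SD came from its own leave-one-out values. The 28 and 21 are therefore not a score of robustness. The mean TEC share of counts of 1.93% was 3.44% in the second table and 0.993% as a share of TPM. Loci at 1 TPM or more in all libraries numbered 1716 in the second table against 983, and 1134 and 772 at thresholds of 0.5 and 2 TPM. The median SD of 0.221 was 0.275 on log2(TPM + 1), 0.138 with no filter on counts, and between 0.155 and 0.209 with 1 library left out. The difference by strand of the host of 0.31 was 0.74 on log2 CPM, 0.51 with a pseudocount of 0.1, 0.24 over loci with at least 10 counts and 0.22 with protein-coding hosts only. The Spearman correlation across loci between locus and host on the same strand was 0.643 in the second table, 0.862 on log2 CPM and 0.678 over loci with at least 10 counts. On the other strand it was 0.571, 0.837 and 0.632, and 0.863 with protein-coding hosts. The percentage of loci highest in replicate 1 was 70.9% on log2(TPM + 1), where other genes gave 52.6%, 51.3% at a mean of at least 10 counts and 49.3% in the second table; leaving out libraries was not run for it. No paired analysis was possible because the series has 1 group. For the 1328 loci without counts, the bound of up to 3 counts covers counting error only. In the second quantification, 353 of them had at least 1 TPM in all libraries, and only 540 members had no count in any library. A count of 0 thus changed with the quantification used, and the part of depth was not tested.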
